A study of Mus musculus with 12 samples.

Results

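The genes of hormone granule exocytosis described here are *Stx1a*, *Snap25*, *Vamp2*, *Syt7*, *Unc13a*, *Rab3a*, *Rab27a*, *Rims2* and *Rph3al*. They were taken by gene symbol from a table of 52962 gene identifiers, and all 9 were found and passed the filter on low counts, as did 15598 genes in all. RNA was sequenced from islet cells of female NOD mice, an inbred strain prone to autoimmune diabetes. The cells were separated by their own fluorescence into β-cells and non-β-cells, and 3 samples of each fraction were taken at 4 weeks and 3 at 8 weeks of age, which gives 12 samples in 4 groups. All groups shared the NOD genotype and no treatment was named. Per the study's methods, islets were cultured overnight, the sort was depleted of CD45-positive cells, and each sample came from a pool of mice. The labels do not name the pools, so p-values measure the spread between these samples. The study chose these ages as an early and a more advanced phase of islet inflammation, and the comparisons ask how the secretion genes differed between the fractions and between the ages.

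Islet hormones are stored in dense granules that release their content when the granule membrane fuses with the plasma membrane. The Rab GTPases Rab27a and Rab3a and their effectors bring granules to the membrane. There Rims2 and Unc13a prepare them, and the SNARE proteins Stx1a, Snap25 and Vamp2 form the bundle that pulls both membranes together. Synaptotagmins, of which Syt7 is one, bind calcium and couple its entry to fusion. The same parts serve insulin release in β-cells and glucagon release in α-cells.

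Levels are given as CPM, a gene's counts scaled to the same library total in every sample, with library sizes set by TMM, the trimmed-mean method of edgeR. Differences are log2 values from limma-voom with their standard errors (SE), and p-values were adjusted over the 15598 tested genes. Total estimated counts per sample ranged from 13755106 to 27040652. The summed level of 10 β-cell markers was 46800 to 114000 CPM in β samples and 3010 to 5980 CPM in non-β samples. The summed level of α-cell markers was 107000 to 137000 CPM in non-β samples, 5960 to 9770 CPM in β samples at 4 weeks and 1880 to 2930 CPM in β samples at 8 weeks. The fractions were thus far apart in both lists, and the α-cell markers of β samples were lower at 8 than at 4 weeks. *Ptprc*, the CD45 gene, averaged at most 0.454 CPM in a group. The summed level of the 9 leukocyte markers that include it reached 84.8 CPM in β and 76.2 CPM in non-β samples at 8 weeks. Both 4-week samples numbered 3 stood apart from the other 4-week samples. In the β sample numbered 3, genes whose longest transcript is under 2000 bases had a median log2 CPM 0.50 above the mean of replicates 1 and 2, while genes with transcripts of 6000 bases or more had a median deviation of -0.63. In the non-β sample numbered 3 these medians were 0.32 and -0.45. Where leaving both out changed a call of the 9 genes, both values are given.

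Because levels of different genes can be compared only per length, estimated counts were also divided by the longest annotated transcript and scaled to TPM, the length-corrected counterpart of CPM. On that scale the 9 genes fell into a high and a low set in β-cells. At 4 weeks *Rab27a* had a mean of 198 TPM, *Vamp2* 170, *Syt7* 169 and *Rph3al* 164, and neighbours in this order overlapped between replicates. *Rab3a* followed at 110 TPM, and below a gap stood *Snap25* at 39.2, *Unc13a* at 26.9, *Stx1a* at 26.8 and *Rims2* at 23.1 TPM. In non-β-cells at 4 weeks the order was led by *Rph3al* at 205 TPM and *Vamp2* at 202 TPM, which overlapped. There *Rab27a* was at 103 TPM, separate from its neighbours *Syt7* at 160 TPM and *Rab3a* at 60.9 TPM. The genes with a mean of about 50 TPM or less in non-β-cells at 4 weeks, *Stx1a*, *Unc13a*, *Snap25* and *Rims2*, each overlapped the next. At 8 weeks *Rab27a* was first in β-cells, at 221 TPM, overlapping *Rph3al* at 216 TPM, and *Rph3al* was first in non-β-cells, at 231 TPM, above *Vamp2* at 198 TPM. The order depends on the length used. With the mean transcript length *Syt7* was first in every group, at 378 and 464 TPM in β-cells and 383 and 317 TPM in non-β-cells at 4 and 8 weeks, and 3 of the 9 genes kept their place in β-cells at 4 weeks but 1 in each of the other groups.

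At 4 weeks 7 of the 9 genes differed between the fractions, where 48.5% of all tested genes were called. Of these, 2 were higher and 5 lower in β-cells, beside 24.9% and 23.7% of all tested genes. At 8 weeks 5 differed, where 49.2% of all tested genes were called, and 4 were higher and 1 lower, beside 23.6% and 25.6%. With age, 5 of the 9 rose in β-cells and 0 fell, where 17.9% of all tested genes were called, 8.59% rising and 9.35% falling. For this comparison edgeR called 4 of the 9, without *Syt7*, and DESeq2 called 6, adding *Rab27a* (0.26, adjusted p = 0.0255). They called 2820 and 3586 of the 15598 tested genes. In non-β-cells 0 of the 9 passed limma-voom, where 16.4% of all tested genes were called. There 3 of the 9 had an unadjusted p under 0.05, as did 28.4% of all tested genes. edgeR called 0 of the 9 and DESeq2 called 1, which was *Rab27a*, where they called 2192 and 2853 of the 15598 tested genes. The median log2 difference of the 9 genes was -0.31 at 4 weeks and 0.09 at 8 weeks for β minus non-β, 0.32 for age in β-cells and 0.08 for age in non-β-cells, and the medians of all tested genes lay between -0.00 and 0.02. The 3 samples of one group lay all above or all below those of the other for 7 genes between the fractions at 4 weeks (53.2% of all tested genes), 6 at 8 weeks (64.8%), 6 between the ages in β-cells (40.3%) and 0 between the ages in non-β-cells (32.8%). The comparisons share samples, since β-cells at 4 weeks enter both their age comparison and the 4-week comparison of fractions. In sorted bulk samples, fewer cells of a type and less RNA per cell cannot be told apart.

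**Figure D1:**
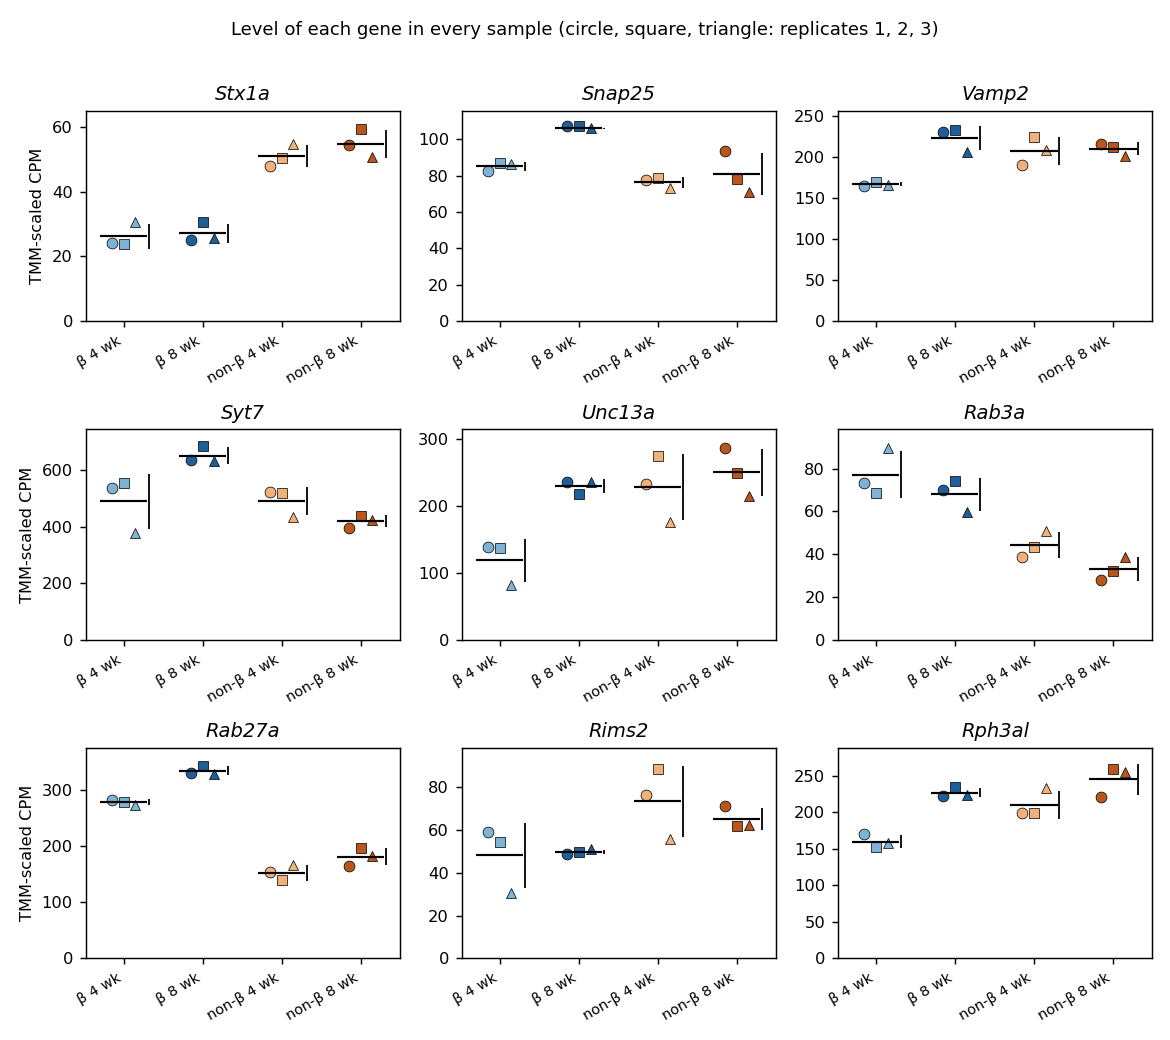
TMM-scaled CPM of each gene in the 12 samples, with circles, squares and triangles for replicates 1, 2 and 3, horizontal lines for the mean and vertical lines for 1 SD either side of it (n = 3). *Stx1a* lies below and *Rab3a* and *Rab27a* above the non-β samples in every β sample, while *Unc13a* in β-cells moves from 119 to 230 CPM between the ages.

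The SNARE genes did not move together. *Stx1a* (chr5:135023482-135051100, GRCm38, plus strand) encodes syntaxin-1A, the plasma membrane SNARE that binds both partners. The β samples gave *Stx1a* at 24.1, 23.8 and 30.7 CPM at 4 weeks, then 25.1, 30.5 and 25.7 CPM at 8 weeks. In non-β samples *Stx1a* read 47.9, 50.2 and 54.5 CPM at 4 weeks, then 54.3, 59.3 and 50.6 CPM at 8 weeks. Every β sample was thus below every non-β sample, and the ages overlapped within each fraction. *Stx1a* was lower in β-cells by a log2 difference of -0.96 (SE 0.13, adjusted p = 5.62e-05) at 4 weeks and -1.01 (SE 0.13, adjusted p = 2.92e-05) at 8 weeks, close to a 2-fold difference at both ages. Its age differences were 0.06 in β-cells (95% interval -0.23 to 0.35) and 0.10 in non-β-cells (-0.16 to 0.36).

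The 250 bases before the RefSeq start of *Stx1a* are shown because it was the 1 gene of the 9 called lower in β-cells at both ages. They lie at chr5:135023232-135023481 (GRCm38.p6, plus strand) and are written 5′ to 3′. In all promoters shown, capitals mark the GC box GGGCGG, the CCAAT box and the half-site TGACG of the cAMP response element, searched on both strands, and none of these matches overlapped another. In the same window of 32851 RefSeq promoters, 32.7% held the GC box, 33.8% the CCAAT box and 17.8% the half-site. A match is a description of the letters and not a bound site.
Stx1a: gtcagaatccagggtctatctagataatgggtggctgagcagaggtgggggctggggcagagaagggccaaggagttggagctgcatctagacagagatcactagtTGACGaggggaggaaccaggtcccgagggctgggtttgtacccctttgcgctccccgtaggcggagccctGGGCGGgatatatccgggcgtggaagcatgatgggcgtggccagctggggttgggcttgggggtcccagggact
This stretch held 1 GC box, 1 half-site and no CCAAT box, and its GC content was 62%, against a median of 52.4% over all promoters.

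*Snap25* (chr2:136713453-136782428) encodes the second plasma membrane SNARE. In β samples *Snap25* read 82.3, 86.6 and 86.4 CPM at 4 weeks, then 107, 107 and 106 CPM at 8 weeks, so the ages did not overlap. In non-β samples *Snap25* read 77.4, 78.6 and 73 CPM at 4 weeks, then 93.6, 78.2 and 71 CPM at 8 weeks, and those ages overlapped. *Snap25* was higher in β-cells at 8 weeks by 0.40 (SE 0.10, adjusted p = 0.00631). At 4 weeks the difference was 0.16 (SE 0.10, adjusted p = 0.23), although the lowest β sample was above the highest non-β sample. It passed after removal of each sample's trend on transcript length and GC content (0.35, adjusted p = 0.01). The rise with age in β-cells was 0.32 (SE 0.10, adjusted p = 0.0453). That call was near its threshold. It was lost after removal of the length and GC trend (0.18, adjusted p = 0.201). It was also lost when any 1 of the 6 β samples was left out (adjusted p from 0.0541 without replicate 3 at 4 weeks to 0.141 without replicate 1 at 4 weeks). It was also lost without non-β replicate 1 at 4 weeks (0.0767), non-β replicate 2 at 4 weeks (0.0549) or non-β replicate 2 at 8 weeks (0.0664).

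*Vamp2* (chr11:69088490-69092384) encodes the SNARE carried by the granule itself. The β samples gave *Vamp2* at 164, 170 and 166 CPM at 4 weeks, then 230, 233 and 206 CPM at 8 weeks. In non-β samples *Vamp2* read 190, 224 and 208 CPM at 4 weeks, then 215, 212 and 201 CPM at 8 weeks. The β samples at 4 weeks were thus the lowest of all, and those at 8 weeks overlapped both non-β groups. *Vamp2* was lower in β-cells at 4 weeks by -0.31 (SE 0.09, adjusted p = 0.0148) and differed by 0.09 at 8 weeks (95% interval -0.11 to 0.29, adjusted p = 0.446). It rose with age in β-cells by 0.42 (SE 0.09, adjusted p = 0.00799), and its age difference in non-β-cells was 0.02 (95% interval -0.18 to 0.22). The 4-week difference was not called without non-β replicate 2 at 4 weeks (-0.25, adjusted p = 0.0645), nor the rise without β replicate 1 at 8 weeks (0.37, adjusted p = 0.0543). A fit of the 4-week groups alone did not call the 4-week difference either (-0.30, adjusted p = 0.0689).

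Beside these SNAREs stood relatives that take part in other fusion steps. Each share is of the summed per-length level of a family, from the longest transcripts, and shares also depend on the length used. *Stx1a* made up 12.9% ± 0.18 (SD, n = 3) of the 5 plasma membrane syntaxins in β-cells at 4 weeks, 17% ± 1.18 in β-cells at 8 weeks, 22.5% ± 0.082 in non-β-cells at 4 weeks and 27.1% ± 1.8 in non-β-cells at 8 weeks. *Stx3*, a syntaxin also found on granules, made up 44.8% ± 4.49 in 4-week and 33.8% ± 2.31 in 8-week β samples. *Stx4a* made up 33.8% ± 5.71 and 40.7% ± 2.74 in those samples. In non-β-cells at 4 and 8 weeks *Stx4a* made up 39.9% ± 2.38 and 40.9% ± 2.53, and *Stx3* 28.4% ± 3.21 and 23% ± 1.52. *Stx3* fell with age in both fractions, by -0.75 (SE 0.10, adjusted p = 0.000232) in β-cells and -0.47 (SE 0.10, adjusted p = 0.0058) in non-β-cells. *Vamp2* made up 48.4% ± 5.12 of *Vamp1*, *Vamp2*, *Vamp3* and *Vamp8* in 4-week and 63.2% ± 2.28 in 8-week β samples, beside shares of 64.6% ± 2.79 and 66.5% ± 0.803 in non-β-cells. The counterpart was *Vamp3*, the ubiquitous cellubrevin, which fell in β-cells from 134 ± 26.6 to 87.2 ± 5.27 CPM (-0.61, SE 0.13, adjusted p = 0.00724). *Snap25* made up 59.4% ± 0.472 and 63.1% ± 0.717 of *Snap25* and *Snap23* in β-cells at 4 and 8 weeks.

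**Figure D2:**
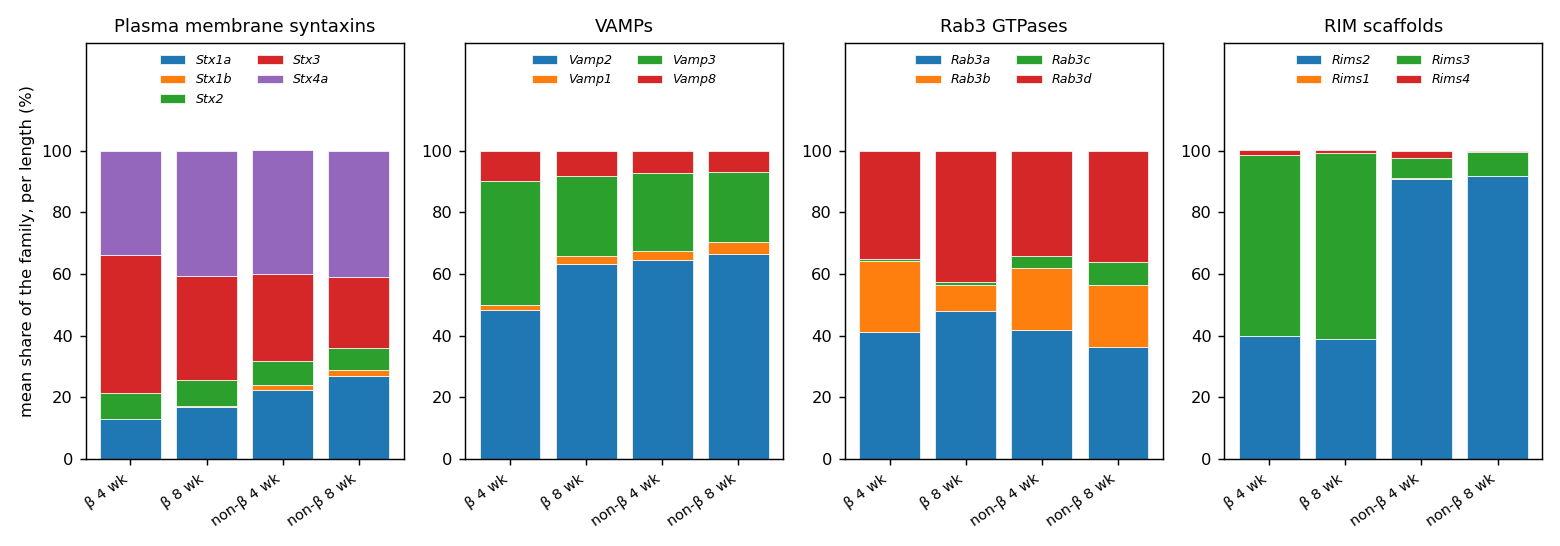
Mean share of each gene in 4 families (bars, percent of the family's summed per-length level, means of 3 samples) in the 4 groups. *Vamp2* is 48.4% of its family in 4-week and 63.2% in 8-week β samples, and *Rims2* is 40% of its family in β-cells at 4 weeks against 90.8% in non-β-cells.

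*Syt7* (chr19:10389090-10453180) encodes synaptotagmin-7, a calcium sensor of insulin and glucagon granules. In β samples *Syt7* read 537, 555 and 377 CPM at 4 weeks, then 637, 687 and 633 CPM at 8 weeks. In non-β samples *Syt7* read 522, 518 and 434 CPM at 4 weeks, then 396, 437 and 426 CPM at 8 weeks. At 4 weeks the fractions overlapped, with the sample numbered 3 lowest in each, and at 8 weeks every β sample was above every non-β sample. The β minus non-β difference was -0.02 (SE 0.14, adjusted p = 0.911) at 4 weeks and 0.64 (SE 0.14, adjusted p = 0.00192) at 8 weeks. *Syt7* rose with age in β-cells by 0.43 (SE 0.14, adjusted p = 0.0446) and its age difference in non-β-cells was -0.22 (SE 0.14, adjusted p = 0.321). Without both 4-week samples numbered 3 the rise in β-cells was 0.26 (adjusted p = 0.0179) and the difference in non-β-cells was -0.30 (adjusted p = 0.00739). The rise missed the threshold with edgeR's test (0.41, adjusted p = 0.0571) and with total counts as the only scaling (0.40, adjusted p = 0.0843). A limma-voom fit of the β groups alone also missed it (0.43, adjusted p = 0.0972). It was missed as well when 1 of 8 samples was left out. These were β replicate 3 at 4 weeks (0.26, adjusted p = 0.0951), each β sample at 8 weeks (adjusted p = 0.0994 to 0.142), non-β replicates 1 and 2 at 4 weeks (0.0775 and 0.0538) and non-β replicates 2 and 3 at 8 weeks (0.06 and 0.058).

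Among the synaptotagmins, the share of *Syt7* in the family's per-length level ranged from 15.5% ± 2.36 in β-cells at 4 weeks to 20.2% ± 2.14 in non-β-cells at 4 weeks. With the mean transcript length it was 37.2% to 40.1%. *Syt13*, which lacks the calcium-binding residues of its relatives, made up 47.8% ± 0.945 in the β fraction and 35.2% ± 0.344 in the non-β fraction at 4 weeks, but 30.5% and 18.6% with the mean transcript length, which is below *Syt7*. *Syt4* was higher in β-cells at 4 weeks by 1.54 (SE 0.12, adjusted p = 4.82e-07), at 393 ± 26 against 136 ± 14.9 CPM. *Syt9*, a sensor of fast release, was lower in β-cells at 8 weeks by -1.49 (SE 0.17, adjusted p = 1.14e-05), at 8.15 ± 1.08 against 23.2 ± 3.31 CPM. Of the 13 other synaptotagmins tested, 3 were higher and 7 lower in β-cells at 4 weeks, and 3 rose and 2 fell with age in β-cells, which is 76.9% and 38.5% beside 48.5% and 17.9% of all tested genes.

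*Unc13a* (chr8:71624417-71671757, minus strand) encodes Munc13-1, which opens syntaxin and primes granules for release. It showed the largest age difference of the 9 genes in β-cells. The β samples gave *Unc13a* at 139, 137 and 82.4 CPM at 4 weeks, then 236, 218 and 236 CPM at 8 weeks. In non-β samples *Unc13a* read 233, 275 and 176 CPM at 4 weeks, then 286, 249 and 215 CPM at 8 weeks. The β samples at 4 weeks were below the samples of all other groups, and the ages overlapped in non-β-cells. *Unc13a* was lower in β-cells at 4 weeks by -0.95 (SE 0.20, adjusted p = 0.00185) and differed by -0.11 at 8 weeks (SE 0.20, 95% interval -0.54 to 0.32, adjusted p = 0.664). The rise with age in β-cells was 0.98 (SE 0.20, adjusted p = 0.00495), close to 2-fold, and the age difference in non-β-cells was 0.15 (SE 0.20, adjusted p = 0.69). Both calls held when each sample was left out in turn. Without both 4-week samples numbered 3 the rise was 0.73 (adjusted p = 0.000577). After removal of each sample's trend on transcript length and GC content, the 8-week difference between fractions was 0.43 with β-cells higher (adjusted p = 0.0011). *Unc13a* made up 72.5% ± 3.43 of the per-length level of the 4 Unc13 genes in 4-week and 81.3% ± 0.606 in 8-week β samples, and its shares in non-β-cells were 76.6% ± 1.28 and 81% ± 1.7.

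The promoter of *Unc13a* is shown for the size of its rise. The 250 bases before its RefSeq start lie at chr8:71671758-71672007 (GRCm38.p6, minus strand) and are written in the direction of the gene.
Unc13a: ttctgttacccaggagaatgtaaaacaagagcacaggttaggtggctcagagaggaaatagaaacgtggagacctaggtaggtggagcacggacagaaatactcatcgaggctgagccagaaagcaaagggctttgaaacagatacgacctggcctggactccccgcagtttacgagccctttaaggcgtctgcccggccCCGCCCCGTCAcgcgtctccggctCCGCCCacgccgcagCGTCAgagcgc
They held 2 GC boxes and 2 half-sites, 1 of each directly adjoining, and no CCAAT box, with a GC content of 58%. The annotation places *Colgalt1* on the opposite strand overlapping *Unc13a*, with a mean of 109 CPM, and whether counting used the strand is not given in the sources used here.

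*Rims2* (chr15:39198261-39684372) encodes RIM2, the scaffold that joins Rab3, Munc13 and calcium channels. In β samples *Rims2* read 58.9, 54.4 and 30.7 CPM at 4 weeks, then 48.8, 49.4 and 50.8 CPM at 8 weeks. In non-β samples *Rims2* read 76, 88.1 and 55.6 CPM at 4 weeks, then 70.9, 61.6 and 62.4 CPM at 8 weeks. The fractions overlapped at 4 weeks, where the sample numbered 3 was lowest in each, and did not overlap at 8 weeks. The difference was -0.64 (SE 0.21, adjusted p = 0.025) at 4 weeks and -0.39 (SE 0.22, adjusted p = 0.152) at 8 weeks. Without both 4-week samples numbered 3 it was -0.52 (adjusted p = 0.0013) and -0.39 (adjusted p = 0.00239), both past the threshold. The 4-week call was lost without β replicate 3 (-0.35, adjusted p = 0.0865), non-β replicate 1 (-0.59, 0.0772) or non-β replicate 2 (-0.50, 0.1). The 8-week difference was called without β replicate 3 at 4 weeks (-0.39, adjusted p = 0.035). In fits of only the groups compared, the 4-week difference missed the threshold (-0.64, adjusted p = 0.0932) and the 8-week difference passed (-0.40, adjusted p = 0.00323). The age difference in β-cells was 0.11 (SE 0.22, adjusted p = 0.778) and turned to -0.18 without both samples numbered 3 (adjusted p = 0.223). In non-β-cells it was -0.15 (SE 0.21, adjusted p = 0.713), and it passed without both samples (-0.31, adjusted p = 0.0341).

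The make-up of the RIM family also differed between the fractions. *Rims2* was 40% ± 5.46 of the family's per-length level in 4-week and 38.9% ± 1.29 in 8-week β samples, against 90.8% ± 2.2 and 91.7% ± 0.467 in non-β-cells. Most of the remainder in β-cells was *Rims3*, the short RIM with a C2B domain only. At 4 weeks *Rims3* was at 92.9 ± 13.4 CPM in the β and 6.85 ± 1.66 CPM in the non-β fraction, a difference of 3.76 (SE 0.19, adjusted p = 9.54e-09). At 8 weeks the *Rims3* difference was 3.83 (SE 0.20, adjusted p = 9.28e-09).

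**Figure D3:**
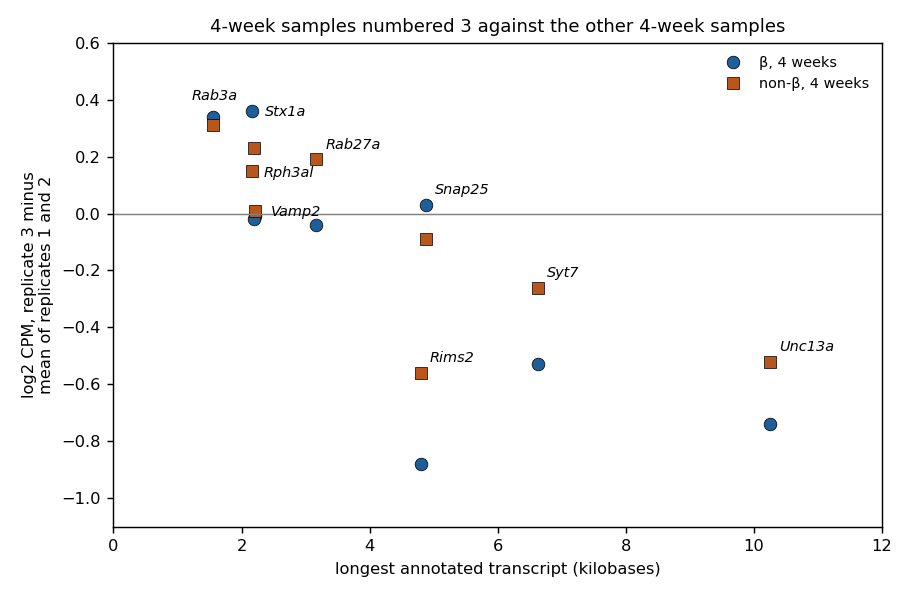
Log2 CPM of the 4-week samples numbered 3 minus the mean of replicates 1 and 2 for each gene, against its longest annotated transcript in kilobases, for β (circles) and non-β (squares). *Rims2*, *Unc13a* and *Syt7* lie lowest in both fractions, at -0.88, -0.74 and -0.53 in β-cells, and *Rab3a* lies above 0 in both.

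*Rab3a* and *Rab27a* were higher in β-cells at both ages. *Rab3a* (chr8:70754679-70758677) encodes a GTPase of secretory granules that binds RIM. The β samples gave *Rab3a* at 73.4, 68.7 and 89.6 CPM at 4 weeks, then 70.2, 74.3 and 59.6 CPM at 8 weeks. In non-β samples *Rab3a* read 38.9, 43.3 and 50.9 CPM at 4 weeks, then 28, 32.1 and 38.9 CPM at 8 weeks. Every β sample was above every non-β sample, and the ages overlapped in β-cells and met at 38.9 CPM in non-β-cells. The β minus non-β difference was 0.80 (SE 0.15, adjusted p = 0.000797) at 4 weeks and 1.05 (SE 0.16, adjusted p = 0.000131) at 8 weeks. The age differences were -0.18 (SE 0.15, adjusted p = 0.435) in β-cells and -0.43 (SE 0.16, adjusted p = 0.0983) in non-β-cells. *Mpv17l2*, on the opposite strand, overlaps *Rab3a* in the annotation and had a mean of 11.5 CPM. The non-β value of *Rab3a* passed with total counts as the only scaling (-0.47, adjusted p = 0.0429) and after removal of the length and GC trend (-0.46, adjusted p = 0.00664).

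*Rab27a* (chr9:73044854-73097629) encodes the GTPase that marks secretory granules for docking. In β samples *Rab27a* read 282, 279 and 273 CPM at 4 weeks, then 330, 343 and 328 CPM at 8 weeks. In non-β samples *Rab27a* read 153, 139 and 166 CPM at 4 weeks, then 165, 196 and 183 CPM at 8 weeks. The fractions were far apart at both ages, and the ages did not overlap in β-cells but overlapped in non-β-cells by 1 sample on each side. The β minus non-β difference was 0.87 (SE 0.10, adjusted p = 1.12e-05) at 4 weeks and 0.88 (SE 0.10, adjusted p = 7.96e-06) at 8 weeks. With age *Rab27a* differed by 0.26 in β-cells (SE 0.10, adjusted p = 0.0769) and by 0.25 in non-β-cells (SE 0.10, adjusted p = 0.101), neither of which passed. Without both 4-week samples numbered 3, the values were 0.25 (adjusted p = 0.0379) and 0.31 (adjusted p = 0.0172), both past the threshold.

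The promoters of *Rab3a* and *Rab27a* are shown as those of the pair that was higher in β-cells at both ages. They lie at chr8:70754453-70754702 and chr9:73044560-73044809 (GRCm38.p6, both plus strand), before the first of the 2 RefSeq starts of each gene.
Rab3a: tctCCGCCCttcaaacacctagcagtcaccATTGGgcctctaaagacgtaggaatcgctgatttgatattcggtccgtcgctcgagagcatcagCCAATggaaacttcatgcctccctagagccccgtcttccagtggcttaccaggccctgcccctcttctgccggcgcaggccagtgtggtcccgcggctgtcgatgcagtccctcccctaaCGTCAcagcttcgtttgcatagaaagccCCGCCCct
Rab27a: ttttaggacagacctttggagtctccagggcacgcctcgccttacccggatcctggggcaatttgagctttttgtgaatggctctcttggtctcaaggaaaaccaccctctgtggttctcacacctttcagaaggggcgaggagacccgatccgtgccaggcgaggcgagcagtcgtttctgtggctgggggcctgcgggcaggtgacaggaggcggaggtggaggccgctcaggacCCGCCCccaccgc
The *Rab3a* stretch held 2 GC boxes, 2 CCAAT boxes and 1 half-site, and the *Rab27a* stretch held 1 GC box and neither of the others. Their GC contents were 58.8% and 62%. At the other start of *Rab27a*, which lies within the gene, the window held 2 CCAAT boxes, 1 half-site and no GC box, and the window at the other start of *Rab3a* held none of these motifs.

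Within their families the 2 GTPases differed. *Rab27a* made up 98.2% to 99.8% of the per-length level of *Rab27a* and *Rab27b* in the group means. *Rab3a* made up 41.2% ± 2.88 of the 4 Rab3 genes in 4-week and 48.1% ± 2.42 in 8-week β samples, beside *Rab3d* at 35.2% ± 4.4 and 42.6% ± 1.93. With the mean transcript length their order turned, with *Rab3a* at 30.5% and 37.2% and *Rab3d* at 39.9% and 50.5%. *Rab3b* was 23% ± 1.64 of the family in 4-week and 8.24% ± 0.487 in 8-week β samples. In CPM *Rab3b* was at 87.6, 82.2 and 107 in β-cells at 4 weeks and at 24.7, 25.1 and 24.7 at 8 weeks, against 37.3, 42.8 and 56.3 and then 32.4, 39.9 and 42.3 in non-β-cells. The *Rab3b* samples of β-cells at 4 weeks were thus the highest of all groups and those at 8 weeks the lowest. *Rab3b* fell with age in β-cells by -1.88 (SE 0.16, adjusted p = 8.42e-06), and its age difference in non-β-cells was -0.24 (SE 0.17, adjusted p = 0.378).

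*Rph3al* (chr11:75830999-75938429, minus strand) encodes Noc2, an effector that binds Rab3 and Rab27 on granules. In β samples *Rph3al* read 170, 152 and 158 CPM at 4 weeks, then 222, 235 and 224 CPM at 8 weeks. In non-β samples *Rph3al* read 199, 199 and 233 CPM at 4 weeks, then 221, 259 and 255 CPM at 8 weeks. The β samples at 4 weeks were below all others, and β samples at 8 weeks overlapped both non-β groups. *Rph3al* was lower in β-cells at 4 weeks by -0.39 (SE 0.10, adjusted p = 0.00629) and differed by -0.11 at 8 weeks (95% interval -0.33 to 0.11, adjusted p = 0.394). It rose with age in β-cells by 0.51 (SE 0.10, adjusted p = 0.00415), and its age difference in non-β-cells was 0.22 (SE 0.10, adjusted p = 0.163). Without both 4-week samples numbered 3 the non-β difference passed (0.30, adjusted p = 0.021), as it did with sample quality weights (0.33, adjusted p = 0.00727). Its relative *Rph3a* was at most 0.615% of the pair in the group means. The 250 bases before the RefSeq start of *Rph3al*, which lies within the gene at chr11:75925892-75926141 (GRCm38.p6, minus strand), are shown because *Rph3al* and *Unc13a* were the members whose rise in β-cells held with every sample left out in turn.
Rph3al: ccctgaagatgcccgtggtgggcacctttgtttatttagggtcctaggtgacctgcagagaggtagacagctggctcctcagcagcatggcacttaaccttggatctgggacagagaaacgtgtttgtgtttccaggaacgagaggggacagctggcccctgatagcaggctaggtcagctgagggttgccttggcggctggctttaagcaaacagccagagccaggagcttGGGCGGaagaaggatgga
They held 1 GC box and neither of the other motifs, with a GC content of 56.4%.

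**Figure D4:**
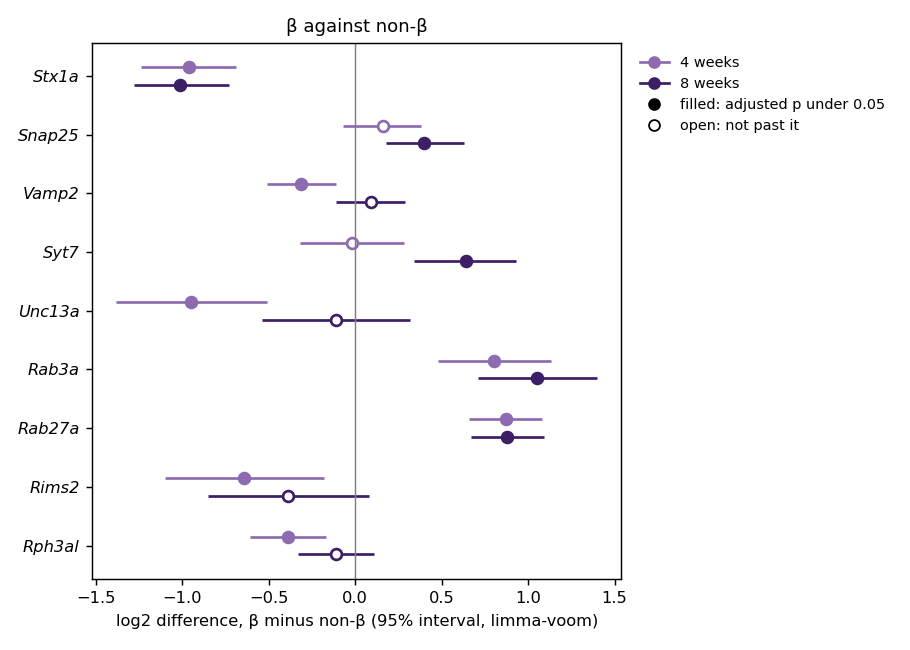
Log2 difference of β minus non-β (limma-voom, bars 95% intervals) at 4 and 8 weeks, with filled points for an adjusted p under 0.05. *Stx1a* stays near -1 and *Rab27a* near 0.88, while *Unc13a*, *Vamp2* and *Rph3al* are below 0 and called at 4 weeks but not at 8 weeks.

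**Figure D5:**
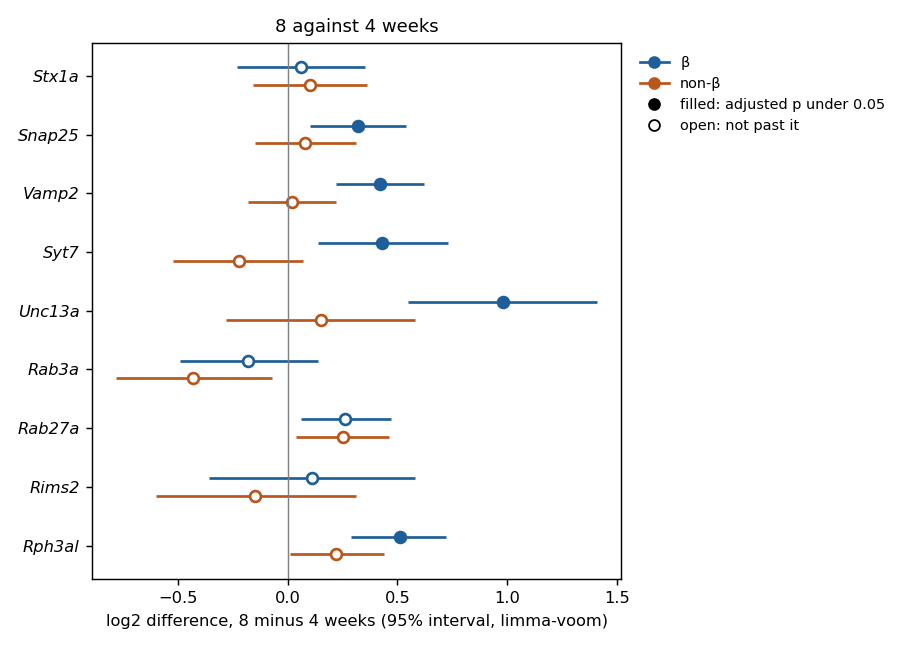
Log2 difference of 8 minus 4 weeks (limma-voom, bars 95% intervals) in each fraction, with filled points for an adjusted p under 0.05. The 5 called points, from 0.32 for *Snap25* to 0.98 for *Unc13a*, are all in β-cells.

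Whether the age difference itself differed between the fractions was tested as the difference of differences. Of the 9 genes 0 passed limma-voom, where 5.13% of all tested genes were called. Of the 9, 3 had an unadjusted p under 0.05, as did 19.2% of all tested genes. edgeR called 0 of the 9 and DESeq2 called 2, which were *Vamp2* and *Syt7*, where they called 916 and 1562 of the 15598 tested genes. *Syt7* had 0.66 (SE 0.19, adjusted p = 0.0746), *Unc13a* 0.83 (SE 0.28, adjusted p = 0.121) and *Vamp2* 0.40 (SE 0.13, adjusted p = 0.111) on the log2 scale, each with the larger change in β-cells. Without both 4-week samples numbered 3, *Syt7* (0.56, adjusted p = 0.00322) and *Unc13a* (0.75, adjusted p = 0.0111) passed and *Vamp2* (0.38, adjusted p = 0.0774) did not. With the replicate number as a block, *Syt7* (adjusted p = 0.00125), *Unc13a* (0.00112) and *Vamp2* (0.0232) passed. At 4 weeks only number 3 stood apart from the other numbers in both fractions, and the labels do not say what the numbers mark. For *Rab27a* the difference of differences was 0.01 (95% interval -0.28 to 0.31), and for *Stx1a* it was -0.04 (-0.44 to 0.35). For the other genes called with age in β-cells, *Snap25* had 0.24 (adjusted p = 0.412) and *Rph3al* 0.28 (adjusted p = 0.307).

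The level of other cell types moved with age beside these results. In β samples 7 of 9 tested α-cell markers fell and 5 of 10 tested β-cell markers rose, where 9.35% of all tested genes fell and 8.59% rose. Acinar cell markers in β samples went from 86 to 185 CPM at 4 weeks to 419 to 902 CPM at 8 weeks, and in non-β samples from 1.87 to 50.2 CPM to 156 to 705 CPM. Duct cell markers went from 833 to 1170 CPM to 1650 to 1780 CPM in β samples and from 581 to 776 CPM to 1940 to 2170 CPM in non-β samples. Leukocyte markers went from 51.7 to 54.2 CPM to 77.3 to 84.8 CPM in β samples and from 8.95 to 13.7 CPM to 64.5 to 76.2 CPM in non-β samples. Of the 3 tested members, 2 rose in each fraction, where 8.59% of all tested genes rose in β-cells and 1813 of 15598 in non-β-cells. In non-β samples endothelial markers went from 40.3 to 79.9 CPM to 350 to 987 CPM and mesenchymal markers from 102 to 294 CPM to 654 to 1050 CPM. There β-cell markers went from 3010 to 4090 CPM to 5080 to 5980 CPM, and δ-cell markers from 5310 to 8020 CPM to 8210 to 11700 CPM. Of the 10 tested β-cell markers 3 rose and 1 fell, and of the 5 δ-cell markers 2 rose and 0 fell. Among all 15598 tested genes 1813 rose and 748 fell in non-β-cells. Markers of neurons, which use the same exocytosis genes, and of Schwann cells were summed as 1 list. They summed to 72.5 to 79 CPM in 4-week and 82.6 to 86.7 CPM in 8-week β samples, and to 64 to 76.4 CPM in non-β samples. Of the 8 tested, 1 was higher and 4 lower in β-cells at 4 weeks, which is 62.5% beside 48.5% of all tested genes. *Tubb3*, a neuronal tubulin, was at 40.1 CPM in β-cells and 6.29 CPM in the non-β fraction at that age. *S100b* was at 0 in all β samples and *Sox10* at 0 in β samples at 4 weeks. *Unc13a*, *Vamp2* and *Rph3al* were lower in β than in non-β samples at 4 weeks, when the α-cell markers of the β samples were higher than at 8 weeks. The part of these other cells in the results was not tested.

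Beyond the 9 genes, 6 lists of other exocytosis genes held 92 genes, of which 86 were tested. In the β fraction 30 were higher and 30 lower at 4 weeks, then 22 higher and 23 lower at 8 weeks. These make 69.8% and 52.3% of the 86, beside 48.5% and 49.2% of all tested genes. With age 14 rose and 10 fell in β-cells, 27.9% beside 17.9% of all tested genes. In non-β-cells 12 rose and 4 fell, 18.6% beside 16.4%. Among the Rab GTPases with their regulators and effectors, 11 of 20 were higher and 5 lower in β-cells at 4 weeks. Among priming and clamping factors 3 of 11 were higher and 6 lower, and among active zone scaffolds 3 of 11 were higher and 5 lower, at the same age. Of 17 other SNARE and SM proteins 3 rose and 4 fell in β-cells with age, and of 14 genes for granule cargo and membrane proteins 5 rose and 1 fell.

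Several effectors of *Rab27a* differed between the fractions. *Sytl4*, which encodes granuphilin and docks insulin granules through Rab27a, was at 351, 342 and 286 CPM in the β and at 9.87, 4.5 and 7.89 CPM in the non-β fraction at 4 weeks. The groups were thus far apart, with a log2 difference of 5.49 (SE 0.21, adjusted p = 8.21e-10), a 44.8-fold difference, at 4 weeks and 5.50 (SE 0.21, adjusted p = 6.75e-10) at 8 weeks. *Mlph*, which encodes the Rab27a effector melanophilin, was higher in β-cells by 3.09 (SE 0.36, adjusted p = 1.54e-05) at 4 weeks. *Sytl5*, which encodes another Rab27a-binding protein, was lower in β-cells by -2.19 (SE 0.46, adjusted p = 0.00173) at 4 weeks and -2.09 (SE 0.40, adjusted p = 0.000743) at 8 weeks. *Sytl2*, a further effector that was picked out after its values were seen, was at 0.731 ± 0.527 CPM in the β and 18 ± 4.72 CPM in the non-β fraction at 4 weeks (-4.76, SE 0.70, adjusted p = 0.000117). These 4 were named for the size of their difference. Of other genes of this kind in the list, picked out after their values were seen, *Sytl1* had 0.77 (SE 0.18, adjusted p = 0.00386), *Myrip* -1.05 (SE 0.24, adjusted p = 0.00328), *Sytl3* 0.34 (SE 0.58, adjusted p = 0.651) and *Exph5* -0.11 (SE 0.43, adjusted p = 0.844) at 4 weeks, beside 0.87 for *Rab27a* itself.

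Other genes lower in β-cells were *Stxbp5l*, which encodes the syntaxin-binding tomosyn-2, with -2.50 (SE 0.40, adjusted p = 0.000242) at 4 weeks, and *Cadps2*, a priming factor, with -1.88 (SE 0.23, adjusted p = 2.70e-05). *Rab3c* was lower by -1.80 (SE 0.23, adjusted p = 4.48e-05) at 4 weeks and rose with age in non-β-cells by 0.76 (SE 0.17, adjusted p = 0.00726). *Pcsk1*, the prohormone convertase of insulin granules, was higher in β-cells by 3.93 (SE 0.12, adjusted p = 2.43e-10) at 4 weeks. It rose with age by 0.94 (SE 0.09, adjusted p = 2.15e-05) in β-cells and 0.98 (SE 0.14, adjusted p = 0.000251) in non-β-cells. *Mlph* rose with age in β-cells by 1.60 (SE 0.16, adjusted p = 2.25e-05), from 14.8 ± 1.97 to 45 ± 2.68 CPM. *Pam*, which amidates peptide hormones, rose there by 0.91 (SE 0.09, adjusted p = 3.65e-05), and *Napb*, a SNARE recycling factor, fell by -0.95 (SE 0.19, adjusted p = 0.00438). *Vamp1*, a neuronal relative of *Vamp2*, rose in β-cells by 0.97 (SE 0.28, adjusted p = 0.0322). That call was lost without β replicate 3 at 4 weeks or any β sample at 8 weeks (adjusted p up to 0.117). Without both 4-week samples numbered 3 the rise was 0.51 and was still called (adjusted p = 0.0287). In non-β-cells *Vgf*, a granule peptide precursor, fell with age by -0.95 (SE 0.14, adjusted p = 0.000378).

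The pattern of each gene over the 12 samples was compared with those of 10166 genes by Pearson's r of log2 CPM, as a description in which the samples share their groups and libraries. The genes most like *Stx1a* were *Dlk1* (r = 0.988) and *Pdlim4* (0.983), and those most like *Rab27a* were *Cd68* (0.995) and *Kcnip1* (0.989). *Rab3a* was most like *Nabp2* (0.989) and *Mrps18b* (0.986). The long noncoding RNAs *Kcnq1ot1* (0.992) and *Xist* (0.988) were the most like *Unc13a*. *Vamp2* had the least close match, *Tmc4*, at 0.935. Nearest to *Snap25* was *Tnfrsf22* (0.953), to *Syt7* *Nipal3* (0.946), to *Rims2* *Pcnx3* (0.975) and to *Rph3al* *Fam20c* (0.977). Among the 9 genes themselves r ranged from -0.886 between *Stx1a* and *Rab27a* to 0.812 between *Vamp2* and *Unc13a*.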

How the data were processed

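RNA was sequenced from β-cells and non-β-cells of female NOD mice, 3 samples per fraction at 4 and at 8 weeks, from a strand-specific total RNA kit with low input. Per the study's methods and the submitters' processing notes, the authors ran fastp for adapter and quality trimming, kallisto on the Ensembl 98 mouse transcriptome (GRCm38) and tximport for gene sums, and they deposited the resulting estimated counts, which need not be whole. Tool versions, and whether strand was used, are not given in the sources used here.

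Estimated counts were rounded and tested with limma-voom (limma 3.58.1, edgeR 4.0.16, R 4.3.3), with TMM scaling, genes above 1 CPM in at least 3 samples, 1 mean per group over all 12 samples, and Benjamini-Hochberg adjustment at 0.05. A prior count of 2 entered log2 CPM. The script was tested on simulated data. DESeq2 1.42.0, edgeR's quasi-likelihood test, other filters, scalings, sample weights, a replicate block and leaving out samples were alternatives. Total counts of 13755106 to 27040652 limit the precision of low genes most.

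Between the fractions at 4 weeks, deviations of same-numbered samples correlated at r = 0.292, 0.429 and 0.673 over 10280 genes. Pairs of different numbers reached 0.434 (β 2 with non-β 1) and 0.259 (β 1 with non-β 2). Pairs of number 3 with 1 or 2 lay between -0.668 and -0.424, so only number 3 stood apart. At 8 weeks same-numbered samples gave 0.125, 0.164 and -0.0706, and between ages -0.073 to 0.351. These values do not show that the numbers pair the samples. The labels do not say what the numbers mark. The blocked fit changed no call of the 9 genes at 4 weeks.

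Members and lists were chosen with earlier results of these data known. Of the other lists, the 4 largest rises and 4 largest falls per comparison with an adjusted p under 0.05 and a mean log2 CPM of at least 3 could be named, with relatives of the 9 genes. Gene coordinates are from GENCODE M21, promoters from RefSeq (GRCm38.p6). RefSeq starts were found for 5 of the 9 genes, and *Snap25*, *Vamp2*, *Syt7* and *Rims2* are named only.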

Additional observations from a re-analysis of the deposited data

Results flagged for a closer look

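The change with age differed between the fractions in 9 of the 86 tested genes of the wider exocytosis lists, or 10.5%. It did so in 0 of the 9 genes described above, beside 5.13% of all tested genes. The test was of that difference (limma-voom, change in β-cells minus change in non-β-cells, log2). *Rab3b* had -1.64 (SE 0.23, adjusted p = 0.00117), falling in β-cells from 92.4 to 24.8 CPM beside 45.5 and 38.2 CPM in non-β-cells. *Pam* had 1.00 (SE 0.13, adjusted p = 0.000799), with 819 and 1530 CPM in β-cells at 4 and 8 weeks. *Syt11*, a synaptotagmin that does not bind calcium, had -0.76 (SE 0.14, adjusted p = 0.00821), with 77.3 and 59.7 CPM in β-cells and 51.4 and 67.6 CPM in non-β-cells. *Scg3*, a granule-sorting protein, had 0.69 (SE 0.13, adjusted p = 0.00939), and *Vgf* had 0.97 (SE 0.20, adjusted p = 0.0118). These 5 calls held with each sample left out in turn.

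The other 4 did not. *Syt5* had 1.15 (SE 0.25, adjusted p = 0.0182), with 74.3 and 113 CPM in β-cells and 166 and 117 CPM in non-β-cells, and was lost without β replicate 2 at 4 weeks or at 8 weeks (adjusted p up to 0.056). *Ptprn*, a granule membrane protein, had 0.61 (SE 0.13, adjusted p = 0.0182) and was lost without β replicate 2 at 4 weeks, β replicate 1 or 2 at 8 weeks or non-β replicate 1 at 4 weeks (up to 0.0689). *Doc2b*, a calcium sensor, had -1.44 (SE 0.37, adjusted p = 0.0403) and was lost in 9 of the 12 fits without 1 sample (up to 0.108). *Rph3a* had -6.20 (SE 1.28, adjusted p = 0.0134) at group means of at most 1.86 CPM, with 0, 0 and 0.394 CPM in the 4-week non-β samples, and was lost without non-β replicate 1 at 4 weeks (0.0567).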

How the results depend on the processing

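Of the 9 genes, leaving out 1 sample gave 5 to 7 calls between the fractions at 4 weeks, 5 to 6 at 8 weeks, 2 to 5 for age in β-cells, 0 to 0 for age in non-β-cells and 0 to 2 for the difference of the age changes. A 2-fold threshold left 0 calls at 4 weeks, 2 at 8 weeks and 0 for age in β-cells, and total counts as scaling left 3 for age in β-cells. For age in non-β-cells DESeq2 gave 1 call, total counts 1, sample quality weights 3, leaving out both 4-week samples numbered 3 gave 4, removal of the length and GC trend 3 and an adjusted p under 0.1 gave 1. For the difference of the age changes these gave 2 (DESeq2), 4 (quality weights), 2 (without the samples numbered 3), 2 (length and GC trend) and 1 (adjusted p under 0.1), and the replicate block 3: *Vamp2* (0.40, adjusted p = 0.0232), *Syt7* (0.66, 0.00125) and *Unc13a* (0.83, 0.00112). The block also ended the call of *Snap25* with age in β-cells (adjusted p = 0.0626) and made that of *Rims2* at 8 weeks (-0.39, 0.00547). The same numbers correlated at 0.133, -0.0307 and 0.0691 between the ages in β-cells and at 0.284, -0.073 and 0.351 in non-β-cells. Non-β pairs of different numbers lay between -0.389 and 0.227, and whether the numbers pair those samples was not tested. The median of the 36 group means was 156 CPM, 180 without 44 hormone and mitochondrial genes and 153 to 160 with 1 sample left out, and in the order by the mean over all 12 samples 3 genes kept their place with the mean transcript length.

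Among the 9 genes, signs turned only for differences that limma-voom did not call. *Syt7* at 4 weeks was 0.00 without a filter, 0.07 with quality weights, 0.08 without the samples numbered 3 and 0.25 after the length and GC trend (adjusted p = 0.0259), and -0.12 to 0.16 with 1 sample left out. *Unc13a* at 8 weeks was 0.43 after that trend. For age in β-cells *Stx1a* ranged from -0.03 to 0.18 and *Rims2* from -0.18 to 0.25 with 1 sample left out, and *Rims2* was -0.17 with quality weights and -0.18 without the samples numbered 3. For age in non-β-cells *Snap25* ranged from -0.04 to 0.18, *Vamp2* from -0.07 to 0.08 (-0.03 with total counts, -0.00 with only the groups compared, -0.01 after the trend) and *Unc13a* from -0.02 to 0.29 (-0.01 without the samples numbered 3, -0.03 after the trend). In the difference of the age changes *Stx1a* ranged from -0.13 to 0.08 (0.02 without the samples numbered 3, 0.09 after the trend), *Rab27a* from -0.06 to 0.08 (-0.01 with DESeq2, -0.01 with size factors, -0.07 with quality weights, -0.06 without the samples numbered 3, -0.00 after the trend) and *Rims2* from -0.04 to 0.43. The cause was not tested. With 3 samples per group, differences whose 95% interval held 0 could not be told from 0. The intervals are not adjusted for the number of genes tested, so an interval without 0 is not in itself a call.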
